A study of Homo sapiens with 24 samples.

Results

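RAS-induced senescence (RIS) was followed here in IMR90 cells that carried the control vector, across all genes of 12 RNA-seq libraries out of the 24 in the series. IMR90 cells are human lung fibroblasts. They had been infected with a retrovirus for ER:HRAS(G12V), an oncogenic RAS joined to the oestrogen receptor, and with the empty MSCV vector. All 12 libraries share both vectors and a passage between 23 and 28. The 6 growing libraries received no agent, and the 6 RIS libraries were made after 6 days of 4-hydroxytamoxifen (4OHT), the ligand that switches the fusion protein on. Since growing cells had no agent, 4OHT itself and active RAS cannot be told apart here. Each replicate is labelled as a biological replicate, and the samples were chosen by their labels alone. The other 12 libraries of the series carry a hairpin against HMGA1 (shHMGA1) in place of the empty vector and were used only for comparison.

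Oncogenic RAS signals through RAF, MEK and ERK to transcription factors of the AP-1 family, and ERK output is held back by phosphatases and Sprouty proteins that ERK itself induces. In senescence, the CDK inhibitors p16 and p21 keep the RB family active, so that E2F and DREAM targets for DNA replication and mitosis are shut off. Senescent cells also lose lamin B1 and secrete cytokines, chemokines and proteases, the senescence-associated secretory phenotype (SASP), in which IL1 acts upstream through NF-kB and C/EBP beta. Fibroblasts otherwise make collagens and actin-based contractile proteins under the control of TGF-beta and the myocardin and SRF factors.

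The total count per library lay between 9146636 and 23103424, with a median of 10464720. Genes with enough counts numbered 12854 of the 25702 identifiers listed. Levels are given as CPM, the counts of a gene relative to the effective size of its library, and a log2 fold change is positive where RIS is higher. A gene was called where its adjusted p was under 0.01 and its log2 fold change was over 0.58 in size. In RNA from whole cultures, fewer cells that express a gene and less RNA per cell cannot be told apart.

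Growing replicate 4 and RIS replicate 2 went against their labels. Whether these 2 labels were exchanged cannot be told from the files and was left undecided, so each value over the 12 libraries, the count of called genes included, holds for the labels as given. At the genes called without them (below), growing replicate 4 lay nearer to the mean of the other RIS libraries at 96.5% of genes, with a median position of 128% on a scale where the other 5 growing libraries average 0 and the other 5 RIS libraries average 100. RIS replicate 2 lay nearer to the growing mean at 98.1% of these genes, with a median position of −7.48%. The library labelled growing replicate 4 had, for example, 20278 CPM of IL1B and 3.91 CPM of MKI67, against 349 to 901 CPM and 89.5 to 156 CPM in the other growing libraries. Among the 5 other RIS libraries, replicates 1, 3 and 4 had median positions of 113, 118 and 119%, while replicates 5 and 6 lay lower, at 72.8 and 82.6%, with each library left out of the mean of its own group. These 10 positions are a description, since the same libraries gave the calls. Those of growing replicate 4 and RIS replicate 2 are a description too, since the pair was set apart for its profiles. The 10 genes with the most counts took 18.4% of the counts in growing replicate 4 and 6.50 to 9.12% in the other growing libraries. In RIS replicate 2 this share was 7.03%, against 9.86 to 16.8% in the other RIS libraries.

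With all 12 libraries as labelled, 0 of 12854 genes were called (0%) by edgeR's quasi-likelihood test. The smallest adjusted p was 0.203, and 2500 genes (19.4%) had an unadjusted p under 0.05. DESeq2 called 1 gene over the 12, CFAP45, a cilium-associated protein, at 1.57 on the log2 scale by edgeR. Without growing replicate 4 and RIS replicate 2, 4668 genes (36.3%) were called, 2265 of them higher in RIS (17.6%) and 2403 lower (18.7%), and 7903 (61.5%) had an unadjusted p under 0.05. Of the called genes, 1180 were higher and 1508 lower by over 2-fold, and 141 and 183 by over 8-fold. The 10-library p-values are too small, because the pair was left out for its profiles, and they are read here beside the 12-library values. In what follows, "rose" and "fell" name genes called over the 10 libraries, none of which was called over the 12. A value without a unit beside a gene is its log2 fold change over the 10 libraries, and a list's median is the median of such values. Each count of called list members is to be set beside 36.3% of all genes, 17.6% higher and 18.7% lower.

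Leaving out 1 library of the 12 gave called genes only for the same pair. Without growing replicate 4, 372 genes were called, and without RIS replicate 2, 658 genes. Without any one of the other 10 libraries, 0 genes were called. Of the 36 ways to leave out 1 growing and 1 RIS library, 1 gave any called gene. The 25 pairs that held neither of the discordant libraries gave 967 to 1364 genes with an unadjusted p under 0.05, and the 10 pairs that held 1 of them gave 3763 to 5970.

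**Figure D1:**
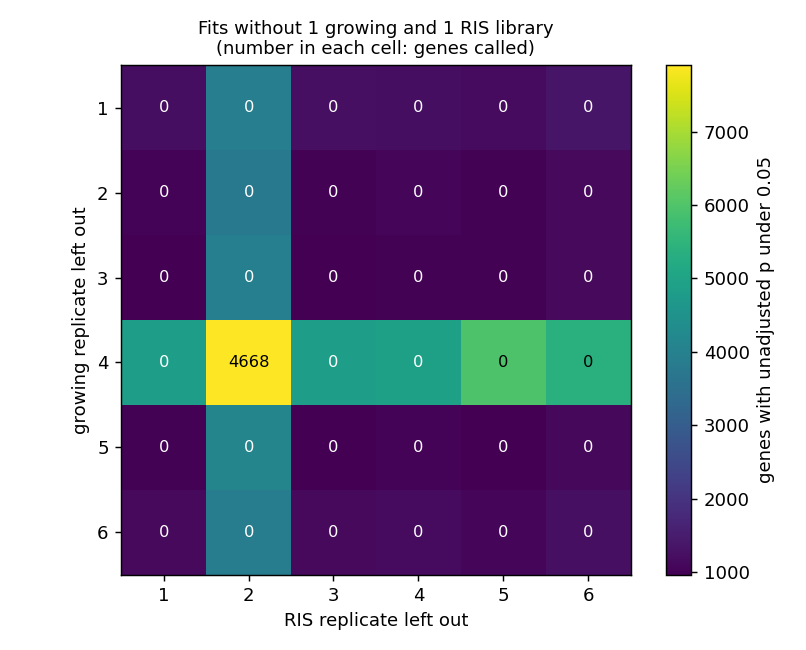
Fits that each left out 1 growing library (y axis, replicate number) and 1 RIS library (x axis, replicate number). The colour gives the number of genes with an unadjusted p under 0.05 and the number in each cell the genes called, which is 4668 for growing replicate 4 with RIS replicate 2 and 0 for the other 35 pairs.

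The agent's target was examined first. HRAS (Entrez 3265, chromosome 11, 532242 to 537321, minus strand, GRCh37) had 2617 ± 423 CPM (SD, n = 6) in growing libraries and 2221 ± 337 CPM (SD, n = 6) in RIS libraries. The log2 fold change was −0.24 (standard error 0.16, adjusted p = 0.41) over the 12 libraries and −0.36 (standard error 0.14, adjusted p = 0.041) over the 10, which is under the fold threshold. Reads of the endogenous gene and of the ER:HRAS(G12V) transcript cannot be told apart in these gene counts, and 4OHT acts on the protein. HMGA1 had a log2 fold change of 0.034 over the 12 libraries and 0.023 over the 10, and HMGA2 of 0.16 and 0.12. All 4 of these values lay within 1 standard error of 0.

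Among ERK feedback genes, the phosphatases DUSP4, DUSP5 and DUSP6 rose. Of 15 tested members of the ERK list, 6 rose and 3 fell, a share of 60% beside 36.3% of all genes. The median log2 fold change of the 15 was 0.57 over the 10 libraries, where the median of all genes was 0.0065. DUSP6, a phosphatase that removes activating phosphates from ERK, had 154, 149, 153, 119 and 112 CPM in growing replicates 1, 2, 3, 5 and 6 and 509, 520.4, 491, 527 and 515 CPM in RIS replicates 1, 3, 4, 5 and 6. The levels were 472 CPM in growing replicate 4 and 174 CPM in RIS replicate 2, so that each stood nearer the opposite group and the groups overlapped only through them. Its log2 fold change was 1.24 (standard error 0.38, adjusted p = 0.2) over the 12 libraries and 1.9 (standard error 0.12, adjusted p = 7.1e-08) over the 10. DUSP4, a nuclear ERK phosphatase, rose by 3.19 and DUSP5 by 1.8. Among Sprouty family members, SPRY2 rose by 1.86 and SPRED1 by 0.94, whereas SPRY1 fell, at −1.74. FOSL1, an AP-1 subunit that ERK stabilises, and CCND1, the cyclin that opens G1, also fell, at −0.95 and −0.65. The ETS factors ETV4 and ETV5, other common readouts of ERK, had values of −0.20 and −0.26 and were not called.

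EGF receptor family ligands, which feed back on RAS from outside the cell, moved both ways. EREG rose by 2.86 on the log2 scale, NRG1 by 2.69 and AREG by 1.69, while EGF fell, at −3.61. NRG1 had 60.6 to 93.8 CPM in the 5 growing libraries and 419.6 to 568 CPM in the 5 RIS libraries, with 349 in growing replicate 4 and 92.4 in RIS replicate 2. TGFA and HBEGF were not called, at 0.74 and 0.39.

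The CDK inhibitors split into 3 that rose and 3 that fell, of 7 tested, a share of 85.7% beside 36.3% of all genes. CDKN2A (Entrez 1029, chromosome 9, 21967751 to 21995300, minus strand, GRCh37) encodes p16 and, from another first exon, p14ARF. Gene counts add these together. CDKN2A had 4.32, 4.13, 4.23, 4.09 and 4.75 CPM in the growing replicates 1, 2, 3, 5 and 6 and 15.4, 12.5, 15.6, 11.1 and 10.9 CPM in the RIS replicates 1, 3, 4, 5 and 6. Of all 12 libraries, growing replicate 4 was highest (18.8 CPM) and RIS replicate 2 lowest (3.7 CPM). Its log2 fold change was 0.80 (standard error 0.45, adjusted p = 0.32) over the 12 and 1.6 (standard error 0.15, adjusted p = 1.6e-06) over the 10 libraries. CDKN2B, the neighbouring gene for p15, rose by 1.36, and CDKN1A, which encodes p21, by 0.94 (adjusted p = 0.0058). CDKN1A differed among growing libraries themselves, with 502 and 582 CPM in replicates 5 and 6 and 1029.8 to 1284 CPM in replicates 1 to 3. CDKN2C, which encodes p18, fell by far the most, at −3.81, and CDKN2D and CDKN1B fell at −0.77 and −0.68.

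The mitosis list fell as a whole: 32 of 32 tested members fell over the 10 libraries and 0 rose, with a median of −3.03. Over the 12 libraries 0 were called, although all 32 had a negative fold change there too, with a median of −1.71. MKI67 (Entrez 4288, chromosome 10, 129894923 to 129924687, minus strand, GRCh37), which codes for a coat protein of mitotic chromosomes and marks cycling cells, had 150.4, 156, 92.7, 89.5 and 101 CPM in the 5 growing libraries. The 5 RIS libraries had 5.07, 4.24, 3.32, 6.36 and 7.08 CPM, and the groups of 5 did not overlap. RIS replicate 2, at 147 CPM, lay with the growing libraries and growing replicate 4, at 3.91 CPM, with RIS. MKI67 had a log2 fold change of −1.78 (standard error 1.04, adjusted p = 0.34) over the 12 and −4.49 (standard error 0.24, adjusted p = 1.5e-08) over the 10 libraries. KIF20A, a kinesin of the central spindle, had a value of −3.87, CENPF, an outer kinetochore protein, −3.74, and PRC1, which bundles midzone microtubules, −3.73. The smallest falls of the list were those of ESPL1 (separase), at −0.73, and AURKA, at −1.09.

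Replication genes fell nearly as uniformly, with 31 of 32 called lower, 0 higher and a median of −2.2. TK1, thymidine kinase, had 83, 74.3, 82.2, 68.1 and 61.4 CPM in the growing and 5.96, 6.19, 6.87, 6.01 and 7.64 CPM in the RIS libraries of the 10, with 7.83 in growing replicate 4 and 61.9 in RIS replicate 2. The log2 fold change of TK1 was −1.99 (standard error 0.71, adjusted p = 0.2) over the 12 libraries and −3.5 (standard error 0.13, adjusted p = 2.6e-09) over the 10. MCM10, which helps to start the replicative helicase, fell at −3.23, and CDT1, which loads that helicase, at −2.88. PCNA, the sliding clamp, fell by less, at −0.85. RFC2, a subunit of the clamp loader, was not called over the 10 libraries (−0.51, adjusted p = 0.0037), but was lower in each of the 6 RIS libraries than in each of the 6 growing ones as labelled.

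The regulators of these programmes moved in both directions. Of 16 RB and E2F family genes, 9 fell and 2 rose, a share of 68.8% beside 36.3% of all genes. The cell cycle factors E2F8, E2F2, MYBL2 and FOXM1 fell at −5.18, −4.57, −4.25 and −3.37, and E2F1 at −2.51. RB1 itself fell at −1.15 and its relative RBL1 at −2.67, while RBL2, the p130 partner of DREAM in arrested cells, was at 0.041 and not called. E2F7 and E2F6 rose at 1.01 and 0.92.

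Promoter sequence was read for the 10129 tested genes in RefSeq's promoter table (GRCh38.p14), from 250 bases before to 50 after the start of each gene, on both strands. The cell cycle homology region (CHR), TTTGAA, through which DREAM and FOXM1 complexes bind mitotic genes, was in 21 of 29 mitosis promoters (72.4%) and in 9.70% of all. It was in 1 of 29 replication promoters (3.45%). The E2F letters TTCCCGC were in 14 of 29 replication promoters (48.3%), in 3 of 29 mitosis promoters (10.3%) and in 10.2% of all. Among all genes that fell, 13.5% held the CHR letters and 12% the E2F letters, and among genes that rose 8.71 and 7%. CCAAT was in 72.4% of mitosis, 58.6% of replication and 36.5% of all promoters. The following windows of 30 bases show the CHR match nearest the start for the 3 mitosis genes with the largest falls among those with a match, on the strand of the gene and with the motif in capitals. They lie on chromosome 10 (129924699 to 129924728, minus strand), chromosome 1 (214776558 to 214776587, plus strand) and chromosome 15 (91537768 to 91537797, minus strand) of GRCh37, where the 300 bases matched exactly once. The CHR begins 29 and 20 bases before the start of MKI67 and PRC1, and at base 41 of CENPF.
MKI67: tcttcgttttcgTTTGAAttgggcgggcgc
CENPF: ccggtggcggctgcgggcagTTTGAAttag
PRC1: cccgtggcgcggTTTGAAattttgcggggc

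For replication genes the same rule on the E2F letters gave CDT1 (chromosome 16, 88870163 to 88870192, plus strand), TYMS (chromosome 18, 657603 to 657632, plus strand) and PRIM1 (chromosome 12, 57146113 to 57146142, minus strand). TYMS makes thymidylate and PRIM1 is the primase catalytic subunit. They fell at −2.45 and −2.38. In CDT1 and TYMS the match is the reverse complement, GCGGGAA. A match is a description of letters and was not tested for binding.
CDT1: cgggaaatttgGCGGGAAccgcgcccgcct
TYMS: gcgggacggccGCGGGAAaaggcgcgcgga
PRIM1: cggccgtgctgTTCCCGCcaattcctgtgg

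Nuclear architecture genes fell or stayed under the thresholds. Of 20 tested members of the lamina and chromatin list, 12 fell and 0 rose (60%, beside 36.3% of all genes), with a median of −1.0. LMNB1 (Entrez 4001, chromosome 5, 126112315 to 126172712, plus strand, GRCh37), which codes for lamin B1, had 41.2, 40.2, 32.7, 39.5 and 51.4 CPM in the growing replicates 1, 2, 3, 5 and 6. The RIS replicates 1, 3, 4, 5 and 6 had 3.2, 2.89, 2.75, 3.74 and 5.28 CPM. Growing replicate 4 was the lowest of all 12 libraries, at 1.89 CPM, and RIS replicate 2 had 33.9 CPM. For LMNB1 the log2 fold change was −2.0 (standard error 0.77, adjusted p = 0.22) over the 12 and −3.51 (standard error 0.19, adjusted p = 1.6e-08) over the 10 libraries. HMGB2, a DNA-bending protein of cycling cells, fell at −2.83, EZH2, the Polycomb methyltransferase, at −1.87, and LBR, the lamin B receptor, at −1.48. The HP1 genes differed, with CBX5 at −1.37, CBX1 at −0.88 and CBX3 at 0.63, the last not called. LMNA, for lamins A and C, fell at −1.12.

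The inflammatory SASP list rose, with 25 of 27 tested members called higher over the 10 libraries, 0 lower, and a median of 2.95. That share of 92.6% stands beside 36.3% of all genes. CCL3, with 27 counts over the 5 growing libraries, passed the filter on low counts only through the libraries where it is high. Its place in the count of 25 is therefore a description. All 27 tested members had a positive fold change over the 12 libraries as labelled, with a median of 1.15, and 0 of them were called there. IL1A (Entrez 3552, chromosome 2, 113531502 to 113542070, minus strand, GRCh37), the membrane-bound cytokine upstream of the SASP, had 19, 30.6, 31.2, 40.8 and 27 CPM in growing replicates 1, 2, 3, 5 and 6. In RIS replicates 1, 3, 4, 5 and 6 it had 565, 545, 512, 419 and 572 CPM. In growing replicate 4 the level was 568 CPM, within the range of the 5 RIS libraries, and RIS replicate 2 had 26.1 CPM, within that of the 5 growing ones. The log2 fold change was 1.88 (standard error 0.94, adjusted p = 0.28) over the 12 and 4.14 (standard error 0.20, adjusted p = 8.3e-09) over the 10 libraries.

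IL1B (Entrez 3553, chromosome 2, 113587328 to 113594393, minus strand, GRCh37), the secreted relative of IL1A, followed it. IL1B had 349, 432, 524, 901 and 795 CPM in the 5 growing and 16156, 17312, 16976, 11563 and 12262 CPM in the 5 RIS libraries, with 20278 in growing replicate 4 and 504 in RIS replicate 2. Its log2 fold change was 1.68 (standard error 1.1, adjusted p = 0.39) over the 12 and 4.63 (standard error 0.29, adjusted p = 5.9e-08) over the 10 libraries. The antagonist of the same receptor, IL1RN, rose too, at 4.32, and so did IL13RA2, a decoy receptor for IL13, at 3.86. IL6, at 288 to 858 CPM in growing and 1609.6 to 2809 CPM in RIS libraries of the 10, rose by 2.13, and its relatives LIF and IL11 by 3.38 and 1.49.

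Chemokines gave the largest changes of the list. CCL3, which draws monocytes, rose by 8.56, and lay at 0.159 to 0.941 CPM in the 5 growing and at 35.5 to 254 CPM in the 5 RIS libraries. The gene has near-identical copies, among which reads may be split. The neutrophil chemokines CXCL5, CXCL3, CXCL2 and CXCL1 rose by 7.13, 6.34, 5.88 and 3.1, and CCL20 by 6.13. CXCL8 (Entrez 3576, chromosome 4, 74606236 to 74609433, plus strand, GRCh37), or IL8, rose in the same libraries. In the growing replicates 1, 2, 3, 5 and 6 it had 1296, 1904, 2505, 7488 and 3964 CPM, and in the RIS replicates 1, 3, 4, 5 and 6 27947, 36382, 34517, 11524 and 22229 CPM. The highest value of all was that of growing replicate 4, 52900.2 CPM, and RIS replicate 2 had 1541 CPM. The log2 fold change of CXCL8 was 0.94 (standard error 0.94, adjusted p = 0.57) over the 12 and 2.95 (standard error 0.46, adjusted p = 0.00014) over the 10 libraries. Among NF-kB feedback genes, TNFAIP3 rose by 1.3 and NFKBIA by 0.62, and BIRC3 was at 0.0098 and not called. SAA1 was not called (0.78) while its near-identical neighbour SAA2 was (1.65).

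The NF-kB letters (GGG, then NN, then TTTCC, with N for any base) were in 10 of 21 SASP promoters (47.6%) against 2.14% of all 10129, and in 2.65% of the promoters of genes that rose. AP-1 letters (TGANTCA) and C/EBP letters (TTGCNNAA) were each in 5 of 21 (23.8%), against 4.56 and 6.67% of all. The 3 SASP genes with the largest rises and an NF-kB match are printed on the strand of the gene, with the match in capitals. They lie in GRCh37 on chromosome 4 (74864466 to 74864495 and 74904466 to 74904495, minus strand) and chromosome 2 (228678469 to 228678498, plus strand). The matches begin 91, 79 and 79 bases before the start, and that of CCL20 is on the opposite strand.
CXCL5: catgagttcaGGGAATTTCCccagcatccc
CXCL3: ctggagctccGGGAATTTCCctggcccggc
CCL20: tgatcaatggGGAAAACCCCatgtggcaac

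Of 19 proteases and inhibitors, 9 rose and 5 fell, a share of 73.7% beside 36.3% of all genes. The stromelysin MMP3, which cuts proteoglycans and other matrix, had 763, 964, 1163, 438 and 339.5 CPM in the 5 growing and 20654, 22668, 20799.6, 11526 and 7969 CPM in the 5 RIS libraries. Growing replicate 4 had 19813 CPM and RIS replicate 2 had 1307 CPM. Its log2 fold change was 1.85 (standard error 1.04, adjusted p = 0.33) over the 12 and 4.51 (standard error 0.41, adjusted p = 1.3e-06) over the 10 libraries. The collagenase MMP1 rose by 3.51, MMP10 by 4.15 and MMP12 by 3.06. MMP9, a gelatinase, was scarce: 2 counts over the 5 growing libraries and 169 over the 5 RIS libraries, a ratio of 118 with a 95% counting interval of 32 to 978. MMP9 passed the filter on low counts only through the libraries where it is high, so its place in the count of 9 is a description. Inhibitors moved both ways. TIMP1 and SERPINB2 rose at 1.37 and 4.04, and TIMP3 and TIMP2 fell at −2.02 and −1.19. MMP2 and PLAU were not called, at −0.49 and 0.32.

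Of the 15 AP-1 and C/EBP factors tested, 7 rose and 3 fell, a share of 66.7% beside 36.3% of all genes. CEBPB, the C/EBP factor of the SASP, had 53.9, 36.4, 39.9, 43.4 and 52.3 CPM in the 5 growing and 112, 104, 119, 119.8 and 91.5 CPM in the 5 RIS libraries, with 100 in growing replicate 4 and 46.6 in RIS replicate 2. Its log2 fold change was 0.86 (standard error 0.28, adjusted p = 0.2) over the 12 and 1.27 (standard error 0.14, adjusted p = 4.9e-06) over the 10 libraries. FOSB rose by 2.08, DDIT3, a stress-induced C/EBP partner, by 1.56, ATF3 by 1.29 and JUN by 0.58. Besides FOSL1, FOSL2 and MAFK fell, at −0.59 and −0.83, and JUNB and JUND were at 0.12 and −0.27.

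Matrix genes went down. Of 26 fibrillar matrix genes 21 fell and 0 rose (80.8%, beside 36.3% of all genes), with a median of −1.82. COL3A1 (Entrez 1281, chromosome 2, 189839099 to 189877472, plus strand, GRCh37), for collagen III, had 1749, 1398, 964, 1239 and 1994 CPM in growing replicates 1, 2, 3, 5 and 6. RIS replicates 1, 3 and 4 had 39.9, 27.9 and 26.9 CPM, and RIS replicates 5 and 6 stood between these and the growing libraries, at 178 and 287 CPM. Growing replicate 4 was lowest of the 12, at 22.5, and RIS replicate 2 had 1254 CPM. The log2 fold change of COL3A1 was −2.02 (standard error 1.05, adjusted p = 0.29) over the 12 and −3.71 (standard error 0.64, adjusted p = 0.00029) over the 10 libraries. ELN (elastin) fell at −4.45, COL5A2 at −3.82, and the collagen I chains COL1A1 and COL1A2 at −3.13 and −3.32. CCN2 and CCN1, matricellular proteins that respond to YAP and TGF-beta, fell at −2.79 and −2.1. POSTN and TNC were not called, at −0.27 and −0.49.

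Contractile genes fell with them, 15 of 16 (93.8%, beside 36.3% of all genes called), and 0 rose. MYOCD, the coactivator of SRF in smooth muscle, had 24.1, 22.9, 17.8, 29.2 and 41.3 CPM in the 5 growing libraries and 1.43, 1.87, 2.06, 1.83 and 3.02 CPM in the 5 RIS libraries, and fell at −3.71. LMOD1, an actin nucleator, fell at −5.29, ACTA2, smooth muscle actin, at −3.52, and CNN1 and TAGLN at −2.61 and −2.29. Only MYL9 of these genes was not called, at −0.42 (adjusted p = 0.043).

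Among 23 TGF-beta and BMP genes (65.2% called, beside 36.3% of all genes), 12 fell and 3 rose. The 3 were INHBA, the activin A subunit (1.61), BMP2 (1.27) and BAMBI, a pseudoreceptor (0.60). Those that fell included the activin antagonist FST (−3.43), the ligands BMP4 and TGFB2 (−2.4 and −2.16), SMAD3 (−1.37) and the BMP targets ID1, ID2 and ID3 (−1.51, −2.78 and −2.67). TGFB1 and SMAD7 were not called, at −0.16 and 0.0075. BMP2 had 166 to 281 CPM in the 5 growing and 463 to 604 CPM in the 5 RIS libraries.

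Of 13 Notch pathway genes, 2 rose and 6 fell, a share of 61.5% beside 36.3% of all genes. NOTCH3 fell at −2.28, NOTCH2 at −1.25 and the ligand DLL4 at −1.87, while NOTCH1 was at −0.40 and not called. The target HEY1 rose by 1.61, and HES1, another target, fell at −0.95. JAG1, a ligand, was past the fold threshold but not that of the adjusted p, and was not called, at 0.61 (standard error 0.23, adjusted p = 0.037). Its level was 10.2, 9.68, 9.25, 9.78 and 12.3 CPM in the 5 growing and 9.82, 11.7, 13.3, 26.4 and 16.6 CPM in the 5 RIS libraries. RIS replicates 5 and 6 lay above all others, and RIS replicates 1, 3 and 4 lay within or just above the growing range.

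Growth and survival genes moved in both directions. Of 19 growth factor genes 5 rose and 11 fell, a share of 84.2% beside 36.3% of all genes. VEGFA, the angiogenic factor, rose by 2.23 and ANGPTL4 by 1.87, and FGF1, PDGFB and IGFBP3 fell at −3.13, −2.33 and −1.72. In the BCL2 family 4 of 13 rose and 1 fell, a share of 38.5%, near the 36.3% of all genes. The protective BCL2A1 rose by 6.07 and MCL1 by 0.83, and BCL2 fell at −1.72. Of 20 p53 targets 4 rose and 1 fell, a share of 25% beside 36.3% of all genes. GDF15 rose by 3.41 and RRM2B by 1.27, and MDM2, the feedback inhibitor of p53, was at 0.55 and not called.

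Lists of metabolism, stress and lysosomal genes lay nearer to the 36.3% of all genes that were called, or under it. Called were 8 of 19 cholesterol genes (42.1%) and 8 of 19 lysosome genes (42.1%). Glycolysis, with 4 of 20 genes (20%), and the ATF4 and unfolded protein response, with 5 of 20 (25%), lay under the share of all genes. In glycolysis, HK2 and PGK1 rose by 0.91 and 0.98, and the glucose transporter SLC2A1 fell at −1.32. Among cholesterol genes, INSIG1 and NSDHL rose by 1.18 and 1.13, and MVK fell at −0.79. TRIB3 and DDIT3 rose by 1.53 and 1.56, and PHGDH, for serine synthesis, fell at −1.66. The lysosomal proteins NPC2 and CTSL rose by 1.22 and 1.04, and TFEB, the factor that drives such genes, fell at −0.95; GLB1, the source of senescence-associated beta-galactosidase, was at 0.22 and not called. Of 19 interferon genes 0 rose and 2 fell (OAS3 at −2.17, IFIT2 at −1.57), a share of 10.5% and under that of all genes. ISG15 and MX1 were at 0.54 and −0.69.

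The largest rises over the 10 libraries, among genes with a mean log2 CPM of at least 2 over the 12, included genes known from the skin barrier. After CCL3 came SERPINB4 (8.18) and SERPINB3 (8.03), serpins of squamous epithelium, LCE1F (8.02) and LCE3D (7.3), late cornified envelope genes, IL36RN (7.66), the IL36 receptor antagonist, and PI3 (7.24), the elastase inhibitor elafin. CXCL5, HEPHL1 (6.68) and TNFSF15 (6.65) completed the 10. TNFSF15 had 1.77, 2.62, 1.1, 1.51 and 1.55 CPM in the 5 growing and 223, 195, 187, 163 and 98.6 CPM in the 5 RIS libraries, and 175 and 3.32 CPM in growing replicate 4 and RIS replicate 2. For LCE1F, LCE3D and SERPINB3 the 5 growing libraries held 3 counts each in sum, against 676, 420 and 692 over the 5 RIS libraries. The ratios were 313, 195 and 321, with 95% counting intervals of 107 to 1520, 66.2 to 948 and 109 to 1560. SERPINB3 and SERPINB4 are near-identical, as are several LCE genes, so that counts may be split among them.

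The largest falls were those of NEURL1B (−5.34), LMOD1, OXTR, the oxytocin receptor (−5.14), COL15A1 (−5.09), CXCL12 (−5.08), ELOVL2, a fatty acid elongase (−4.73), TNFSF4, the OX40 ligand (−4.61), ASPM, a spindle pole protein (−4.6), MKI67 and GALNT15 (−4.49). CXCL12, the ligand of CXCR4, had 15.4, 14, 17.3, 13.3 and 16.2 CPM in the 5 growing and 0, 0, 0.115, 0.958 and 1.04 CPM in the 5 RIS libraries. Again the pair was crossed, with 0 CPM in growing replicate 4 and 16 CPM in RIS replicate 2. TNFSF4 had 54.7 to 94.3 CPM and 1.53 to 5.28 CPM in the same groups of 5, which did not overlap.

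Taking the 12 libraries as labelled, 43 genes (0.335%) had no overlap between the groups of 6, 23 of them higher and 20 lower in RIS. Over the 10 libraries this held for 4478 genes (34.8%). Of the genes with the smallest p over the 12 libraries, PEG10, an imprinted gene of retrotransposon origin, had 44 ± 5.93 CPM (SD, n = 6) in growing libraries and 70 ± 10.6 CPM (SD, n = 6) in RIS libraries, and LMO4, a LIM-only transcription cofactor, had 63 ± 7.61 CPM (SD, n = 6) in growing libraries and 39.6 ± 7.68 CPM (SD, n = 6) in RIS libraries. Their log2 fold changes were 0.67 (standard error 0.13, adjusted p = 0.2) and −0.67 (standard error 0.14, adjusted p = 0.2). CHST11, CYP1B1, TRPS1 and SLC2A13 were the other 4 with the smallest p among higher genes, at 0.99, 1.47, 0.94 and 0.85, and PXMP2, ABHD3, GMNN and PCNA-AS1 among lower genes, at −1.02, −0.96, −1.29 and −0.89. PCNA-AS1 overlaps PCNA, and whether the counting used strand is not given in the sources used here. In PEG10 and LMO4, growing replicate 4 and RIS replicate 2 lay next to each other, at 53 and 53.6 CPM and at 55.3 and 53.2 CPM.

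Replicates 5 and 6 also differed from replicates 1 to 4. Within replicates 1 to 4 (6 libraries of the 10), 6022 genes were called, and within replicates 5 and 6 (4 libraries), 1001. At the 4668 genes called over the 10, 4667 had the same sign in both, and the median log2 fold changes were 1.20 and 0.75 for higher genes and −1.33 and −1.03 for lower ones. These genes were called from the same libraries, so the shared sign is a description and not a replication. A term for replicates 5 and 6, shared by growing and RIS libraries, called 56 genes of 12854 (0.436%). Of these, 35 were higher and 21 lower in those replicates. Among the genes named here the term was past the thresholds for IL36RN (−2.79, adjusted p = 0.0021), SERPINB3 (−2.32, adjusted p = 0.0038), SERPINB4 (−1.91, adjusted p = 0.006), CXCL5 (−1.75, adjusted p = 0.0075), MMP3 (−1.22, adjusted p = 0.0038), OXTR (1.63, adjusted p = 0.0017) and FST (0.72, adjusted p = 0.0084). CXCL5, for example, had 2081 and 1147 CPM in RIS replicates 5 and 6 and 6042 to 7802 CPM in RIS replicates 1, 3 and 4. The split into 1 to 4 and 5 to 6 was chosen after these values were seen, and no label gives it as a batch.

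The lists placed RIS replicates 5 and 6 differently. On the mitosis score they lay at 107 and 89.9% of the way from the mean of the 5 growing to that of the 5 RIS libraries, and on the SASP score at 90.7 and 92.4%. On fibrillar matrix they lay at 74.6 and 68.2%, and on TGF-beta and BMP genes at 63.3 and 79.5%. RIS replicates 1, 3 and 4 lay at 116 to 124% and 113 to 122% on these 2 lists. The cholesterol score was 6.05 and 6.09 on the log2 scale in RIS replicates 5 and 6, above each of the other 10 libraries (5.61 to 5.8). Growing replicates 5 and 6 stood apart from growing replicates 1 to 3 on some scores only. On p53 targets they lay at 4.97 and 5.04, against 5.50 to 5.72. On the interferon response they lay at 3.73 and 3.71, against 3.63 to 3.80.

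Cells with the HMGA1 hairpin served as an independent set, since they share no library with the control vector cells. In them, 5678 genes (44.2%) were called between RIS and growing, 2739 higher and 2939 lower. At the 4668 genes called in control vector cells over the 10 libraries, 4659 (99.8%) had the same sign and 4199 (89.95%) were called in the same direction, with 0 called in the opposite one. The median log2 fold changes were 1.02 in control vector and 1.08 in shHMGA1 cells for genes that rose, and −1.19 and −1.20 for genes that fell. IL1B was at 4.63 and 4.22, LMNB1 at −3.51 and −3.61, and COL3A1 at −3.71 and −4.44.

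**Figure D2:**
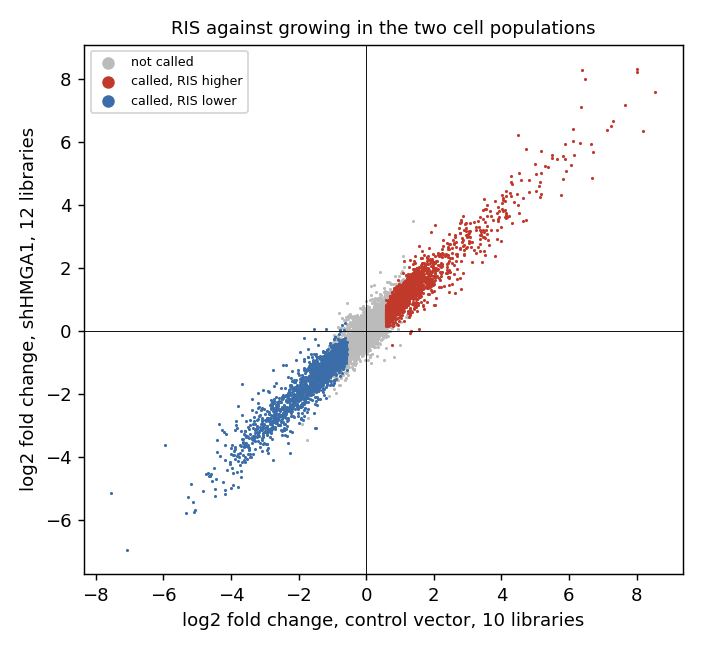
Log2 fold change of RIS against growing for 12854 genes in control vector cells over 10 libraries (x axis) and in shHMGA1 cells over 12 libraries (y axis). Of the 4668 coloured genes, called in control vector cells (red higher, blue lower), 4659 lie on the same side of 0 on both axes.

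The difference of the RIS effect between the 2 cell populations was tested by the interaction term, taken as shHMGA1 minus control vector. With 24 libraries 0 genes were called by edgeR (1326 with an unadjusted p under 0.05), and with 22 libraries 1 was (0.00778%). DESeq2 called 3 over 24 libraries, the mitochondrially encoded RNR2, ND1 and ND3. The gene called over 22 libraries was RGS4, a regulator of G protein signalling, at 1.5 (standard error 0.18, adjusted p = 0.00015). Its log2 fold change was −0.58 in control vector cells, with 27 to 34.5 CPM in the 5 growing and 15.7 to 22.8 CPM in the 5 RIS libraries, and 0.88 in shHMGA1 cells. At an adjusted p under 0.05 the 22 libraries added TRPC6, SLC16A6 and ALDH1A3, at 1.67 (standard error 0.30, adjusted p = 0.035), −1.02 (standard error 0.18, adjusted p = 0.035) and −1.15 (standard error 0.21, adjusted p = 0.035).

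The labelled cell type was checked against its markers. Of the 15 fibroblast markers, VIM and PDGFRA were not called, at −0.25 and −0.36, 9 fell and FAP rose by 0.99. This is a share of 66.7% called, beside 36.3% of all genes. The summed level of the 15 markers, relative to total counts, was 29582 to 56834 CPM in the 5 growing and 6780 to 14197 CPM in the 5 RIS libraries. It was 5328 CPM in growing replicate 4 and 36785 CPM in RIS replicate 2, and the medians over the groups of 6 were 37351 and 10718 CPM. None of the 15 was at 0 in all libraries of either group. Of 10 epithelial markers 2 had enough counts to be tested, and the sum of the 10 lay between 2.96 and 9.99 CPM in all libraries. ESRP1 and SCGB1A1 were at 0 in all growing libraries, and CDH1, KRT5, KRT14, SFTPC and SCGB1A1 in all RIS libraries. Of 8 immune markers 2 were tested (CD68 at 0.34, CSF1R at 1.11), with sums of 46.9 to 106.5 CPM in growing and 66.3 to 109.9 CPM in RIS libraries, where CD3E and ITGAM were at 0. Of 8 endothelial markers TEK alone was tested, and it fell at −2.19. The endothelial sums were 84.9 to 120.0 CPM in the 5 growing and 18.5 to 31.8 CPM in the 5 RIS libraries, with 18.6 in growing replicate 4, 111 in RIS replicate 2 and medians of 99.2 and 27.8 CPM over the groups of 6. EMCN was at 0 in all 12 libraries. Of 14 reference genes, 2 rose (TFRC by 1.24, PGK1 by 0.98) and 2 fell (GUSB at −0.96, ACTB at −0.63), and GAPDH was at 0.13. For this list the share called was 28.6%, beside 36.3% of all genes. The part that cells of other types may have in the results was not tested. Mitochondrially encoded genes took 0.949 to 1.94% of the counts, between 1.09 and 1.85% in growing and between 0.949 and 1.94% in RIS libraries. RIS replicate 2 had the highest share in its group and growing replicate 4 the lowest in its own.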

How the data were processed

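RNA was made into libraries with a stranded, poly(A)-selecting kit and sequenced by the authors, who mapped reads to hg19 (STAR 2.5.0b and cutadapt 1.10.0 in the submitters' processing notes), kept a mapping quality of at least 20 and counted reads per gene with Rsubread. The deposited values are raw counts per Entrez identifier, without normalisation. The annotation, the Rsubread version and the strand setting are not given in the sources used here. Symbols came from RefSeq for 23696 of 25702 identifiers.

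The 12 control vector libraries were grouped by their labels. Genes passing filterByExpr (12854) were fitted with edgeR 4.0.16 (R 4.3.3, limma 3.58.1) by TMM normalisation and the quasi-likelihood test, over 12 libraries and, for the same genes, over 10. Adjusted p-values are Benjamini-Hochberg values over all genes tested, and the thresholds are 0.01 and a log2 fold change of 0.58, as in the study. CPM used the TMM-scaled library size. A prior count of 2 was added for log2 CPM. No 2 libraries of a group differed as little as sampling noise (chi-square per degree of freedom at least 3.80). Deviations of same-numbered libraries correlated with mixed sign, so numbers were not taken as pairs. Counting intervals cover counting error only.

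The groups, members, gene lists, named genes and tests were chosen with earlier results of these data known. Named were the 10 largest changes in each direction over the 10 libraries with a mean log2 CPM of at least 2, a symbol and the same sign over the 12, the 5 smallest p in each direction over the 12, the 2 largest called members of each list in each direction, and 20 fixed genes. Other list members are given with their values. The edgeR script was run on simulated counts with the same dispersion for all genes and no discordant libraries. That run is a check of the script and not of the fit to these libraries. DESeq2 1.42.0, voom, glmTreat, RLE, other filters, a replicate block and left-out libraries were the alternatives.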

Additional observations from a re-analysis of the deposited data

Results flagged for a closer look

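In each group of 6, the highest and lowest library was compared with the rest by its gap to the next library as a share of the group's range (Dixon's ratio, at its 95% critical value for 6 values). Chance alone passes this value in about 5% of groups. The lists and genes were chosen with the profiles of growing replicate 4 and RIS replicate 2 known, and many genes for large changes over the 10 libraries without them, so the ratios of that pair are a description and are not to be read against chance. Growing replicate 1 and RIS replicate 3 passed it on the total count, with ratios of 0.796 and 0.684. The tests share libraries and genes and are not independent.

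Growing replicate 4 had the highest share of counts in the 10 largest genes (0.779). It was the lowest growing library on the scores of DNA replication (0.717), mitosis (0.813), the RB and E2F family (0.745), nuclear lamina and chromatin (0.872), fibrillar matrix (0.772), TGF-beta and BMP signalling (0.828), contractile genes (0.795), the Notch pathway (0.668), the interferon response (0.687) and fibroblast markers (0.828). It was the highest growing library on the inflammatory SASP (0.817), proteases (0.892), serpin B genes (0.752) and the epidermal differentiation complex (0.923). Among the genes fixed for naming, CDKN2A (0.904), DUSP6 (0.781), IL1A (0.776) and IL1B (0.766) were highest there, and LMNB1 (0.860) and MKI67 (0.848) lowest.

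RIS replicate 2 was the highest RIS library on DNA replication (0.754), mitosis (0.839), the RB and E2F family (0.761), nuclear lamina and chromatin (0.773), contractile genes (0.816) and CDK inhibitors (0.652), a list of which 3 members rose and 3 fell. It was the lowest RIS library on ERK feedback (0.656), the inflammatory SASP (0.837), proteases (0.739), AP-1 and C/EBP factors (0.635), clustered histones (0.685), serpin B genes (0.664) and the epidermal differentiation complex (0.779). By gene, it was the lowest for DUSP6 (0.936), IL1A (0.899), IL1B (0.886), CDKN2A (0.752), IL6 (0.751), HEY1 (0.724), CEBPB (0.715) and CXCL8 (0.636), and the highest for MKI67 (0.805), LMNB1 (0.746) and ACTB (0.731).

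RGS4 was past the thresholds in the test of the difference in RIS effect between control vector and shHMGA1 cells over 22 libraries, by 1.5 on the log2 scale. In control vector cells its levels were 27.9, 32, 34.5, 31.8 and 27 CPM in growing replicates 1, 2, 3, 5 and 6 and 20.3, 20.7, 15.7, 22.8 and 22.8 CPM in RIS replicates 1, 3, 4, 5 and 6, with 15.4 in growing replicate 4 and 23.6 in RIS replicate 2.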

How the results depend on the processing

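Calls depended on growing replicate 4 and RIS replicate 2. Over the 12 libraries 0 genes were called, and so they were with RLE normalisation, no filter, a filter of 1 CPM, an adjusted p under 0.05, glmTreat, a replicate block and a fit of all 24 libraries. DESeq2 called 1 gene, CFAP45. Leaving out 1 library gave 0 to 658 genes, 372 without growing replicate 4 and 658 without RIS replicate 2, and leaving out a pair gave 0 to 4668. Fits without both called 4668 genes over 10 libraries, 5060 with 22 and 5004 with DESeq2. All 12 libraries with voom's sample weights gave 5911, where growing replicate 4 and RIS replicate 2 weighed 0.115 and 0.145 and the others 0.489 to 4.95. Of the 4668 genes, 4646 were shared with DESeq2 and 4571 with the weighted fit.

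The count of 4668 over 10 libraries became 2150 with glmTreat, 1001 within replicates 5 and 6, and 3962 to 5373 when 1 more library was left out. It was 4678 with RLE, 5178 with no filter, 5342 at an adjusted p under 0.05 and 5721 also without RIS replicates 5 and 6. These 4 settings and the split by replicates 5 and 6 were chosen after seeing the data. Deviations of same-numbered libraries correlated with mixed sign, from −0.61 to 0.84 over 12 libraries and from −0.47 to 0.47 over 10. Numbers 2 and 4, which each hold 1 of the discordant libraries, had 0.78 and 0.84. As not every pair was over 0.1, the numbers were not taken to pair the libraries. With the replicate block, 2363 genes were called over the 4 remaining pairs of numbers, 955 higher and 1408 lower, 2356 of them among the 4668. Among list members, called genes numbered 0 over 12 libraries, 263 over 10 and 209 over 10 with the replicate block. HMGA1 was at −0.0199 with the block over 10 libraries, at 0.04 with the block over 12 and at 0.03 without it over 12. The count of genes with a different RIS effect in shHMGA1 cells was 0 over 24 libraries, 1 over 22 (RGS4) and 3 with DESeq2 over 24 (RNR2, ND1 and ND3); the cause was not tested. Of 114 named genes, 108 passed over 10 libraries, 90 of 114 with the block, and 0 in the other 4 fits. Most of them were named because they were called over the 10 libraries, so the 108 and the 90 are descriptions. Of all genes tested, 36.3% were called over the 10. At this depth, genes with 3 or fewer counts over a group have wide counting intervals.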

Other observations

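Genes of the epidermal differentiation complex, a cluster on chromosome 1 whose products build the cornified envelope of skin, were looked at after the values of LCE1F and LCE3D had been seen. Of 46 such genes, 43 are listed in the files and 6 had enough counts to be tested. All 6 rose over the 10 libraries, and since each passed the filter on low counts only through the libraries where it is high, this count is a description. They are LCE1F, LCE3D, LCE2D (6.38), LCE2C (6.13), IVL (5.78) and LCE2A (5.64). Summed over the 43 genes, the level was 1.94, 1.43, 1.49, 0.978 and 1.00 CPM in growing replicates 1, 2, 3, 5 and 6 and 100.1, 83.7, 100.6, 68.3 and 38.0 CPM in RIS replicates 1, 3, 4, 5 and 6. Growing replicate 4 had 89.9 CPM and RIS replicate 2 had 1.52 CPM. The sum rests on 11 to 47 counts in the 5 growing and 403 to 986 counts in the 5 RIS libraries. Keratins moved both ways: of 8 tested (75% called, beside 36.3% of all genes), 3 rose (KRT79 by 2.62, KRT15 by 0.87, KRT10 by 0.85) and 3 fell (KRT7 at −2.86, KRT80 at −2.3, KRT8 at −1.7). The basal keratins KRT5 and KRT14 had too few counts to be tested. Of 13 serpin B genes, 9 had enough counts to be tested. Of these 6 rose, from SERPINB8 (1.16) to SERPINB4, and SERPINB9, an inhibitor of granzyme B, fell at −1.64. The share called was 77.8%, beside 36.3% of all genes. SERPINB3, with 3 counts over the 5 growing libraries, passed the filter only through the libraries where it is high. The count of 6 is therefore a description too.

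Clustered histone genes, which cells transcribe mostly in S phase, did not fall with the replication genes. Of 69 such genes, 14 had enough counts to be tested. Among these 14, 9 rose and 0 fell, a share of 64.3% beside 36.3% of all genes. Their median was 1.37 over the 10 libraries and 1.11 in shHMGA1 cells. H2BC8 rose by 2.89, H2AC25 by 2.46 and H2AC8 by 2.43. H2BC8 had 0.978 to 2.2 CPM in the 5 growing and 6.79 to 14.3 CPM in the 5 RIS libraries, and H2BC21 had 12.2 to 23.8 and 44.9 to 60 CPM. The kit selected poly(A) RNA, which selects against histone transcripts without a poly(A) tail. This list too was chosen after values had been seen.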
